A study of Homo sapiens with 6 samples.

Results

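The 9 genes RFX7, CERT1, DNAJC1, CNTLN, AFG2A, CDK14, PLCB1, FBXL2 and MAP2K5, among 19974 protein-coding genes on chromosomes 1 to 22 and X, carried long H3K9me3 coverage in cells with a control guide and none in cells with either guide against PURPL. They were chosen by the measured length under control peaks and the lack of any peak in both guide lists, so the presence of control peaks and the absence of guide peaks over them is a description and was not tested. Each gene was read as its body in GRCh38 with 20 kb on each side, called its window here, and the 9 windows span 3.48 Mb. H3K9me3 is a histone modification of silent chromatin, and it was measured by ChIP-seq in BJ, an established fibroblast line from human skin. All cell lines carried CRISPR interference, which represses a gene at the site where a guide RNA directs it. The first line had a control guide (sgCtrl), the second PURPL guide 1 (sgRNA-PURPL#1) and the third PURPL guide 2 (sgRNA-PURPL#2). PURPL is a long non-coding RNA known as a target of p53. Each line gave 1 H3K9me3 library and 1 input library, and the deposited result is 1 peak list per line, so no value below has a replicate or an error. Peaks inside the lists bear other guide names than the sample titles, so each list was assigned to a line by the name it was deposited under, and the match of guide names was not checked further. The sources used here name neither the repressor nor whether a line is 1 clone.

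H3K9 trimethylation is written by enzymes such as SETDB1 and the SUV39H proteins and is bound by HP1 proteins, which compact the chromatin. In fibroblasts, as in most somatic cells, it is best known from satellite repeats around centromeres, from retrotransposons and from the clusters of zinc finger genes. The 9 genes themselves belong to none of these classes and act in unrelated processes. The sequence under their peaks was not examined, so whether it holds retrotransposons is unknown. RFX7 is a transcription factor of the regulatory factor X family, described as acting downstream of p53, and CERT1 moves ceramide from the endoplasmic reticulum to the Golgi. DNAJC1 is a J-domain partner of the chaperone BiP in the endoplasmic reticulum membrane, CNTLN holds centrioles together, and AFG2A is an AAA-type ATPase of ribosome maturation. CDK14 is a kinase that works with cyclin Y, PLCB1 cleaves a membrane phosphoinositide downstream of G-protein-coupled receptors, FBXL2 is an F-box substrate receptor of a ubiquitin ligase, and MAP2K5 is the kinase that activates MAPK7.

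Depth is unknown, because the lists hold peaks and not reads. Outside 30 gene-free intervals of at least 1 Mb, which on most chromosomes span the centromere, the control list held 10796 peaks, guide 1 held 4080 and guide 2 held 2119. Their median scores there were 17, 17 and 18, and their median widths 677, 608 and 507 bp. The score is the authors' own whole number per peak, never below 10, and its scale is not named; it is used here to describe or filter peaks. Of 9 fibroblast marker genes, 6 had a control peak in the body or within 20 kb, 2 a guide 1 peak and 1 a guide 2 peak, beside 21.9%, 10.5% and 6.00% of all coding genes. MITF (melanocyte) and VWF (endothelium) were the only ones of 13 markers of keratinocytes, melanocytes, endothelium and blood with a control peak, and none of the 13 had a guide peak. Peaks of a silencing mark do not measure expression, so the cell type was not tested by these lists.

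The control list held 47 peaks in the 9 windows, covering 54937 bp, and both guide lists held 0 peaks and 0 bp. Among all coding genes, 12.2% had a control peak and no guide peak in the same kind of window, and among the 4378 with a control peak the share was 55.6%. Absence from both guide lists was thus common for marked genes, and nothing is read from it for the 9. These genes are long, from 143 to 753 kb against a median of 24.2 kb for coding genes, and long genes were marked more often. Of the 2166 coding genes at least as long as the shortest of the 9, 51.4% had a control peak, 25.2% a guide 1 peak and 13.4% a guide 2 peak in the window, and 25.0% had control peaks alone.

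**Figure D1:**
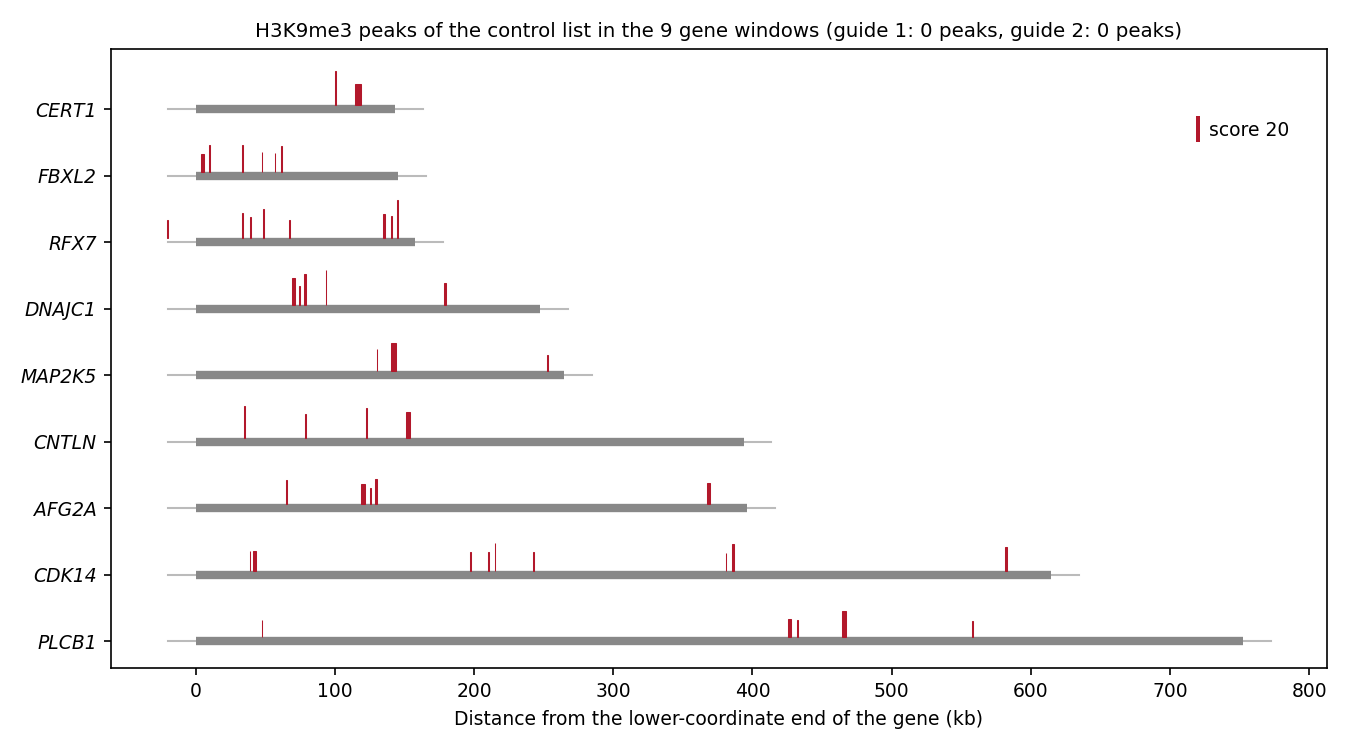
Positions of the 47 control peaks along the 9 genes, ordered by length; thick grey bars are gene bodies, thin grey lines the 20 kb on each side, red bars peaks with height proportional to the deposited score and width to scale apart from a hairline edge. Peaks lie mostly inside the bodies (46 of 47), and the 2 guide lists have no peak in any window.

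The 250 bases before a start site are shown for RFX7, CERT1, FBXL2 and CDK14 to show the sequence that stayed free of peaks beside marked bodies. They are from RefSeq (GRCh38.p14), printed 5′ to 3′ on the strand of the gene, with each CG dinucleotide, which reads the same on both strands, in capitals. Where RefSeq's table listed several starts, the one nearest to a control peak was taken.
RFX7 (chr15:56243880-56244129, minus strand): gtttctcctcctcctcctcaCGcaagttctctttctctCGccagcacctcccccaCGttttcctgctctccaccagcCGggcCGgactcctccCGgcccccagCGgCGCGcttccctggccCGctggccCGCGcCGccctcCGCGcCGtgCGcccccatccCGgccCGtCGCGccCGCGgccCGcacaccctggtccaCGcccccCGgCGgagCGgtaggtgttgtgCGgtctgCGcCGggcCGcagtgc
CERT1 (chr5:75511630-75511879, minus strand): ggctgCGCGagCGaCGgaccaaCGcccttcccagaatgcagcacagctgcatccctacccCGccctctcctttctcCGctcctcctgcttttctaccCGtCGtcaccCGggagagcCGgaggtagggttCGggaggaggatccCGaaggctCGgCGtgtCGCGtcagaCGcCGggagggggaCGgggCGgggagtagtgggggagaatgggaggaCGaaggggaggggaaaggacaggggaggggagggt
FBXL2 (chr3:33277192-33277441, plus strand): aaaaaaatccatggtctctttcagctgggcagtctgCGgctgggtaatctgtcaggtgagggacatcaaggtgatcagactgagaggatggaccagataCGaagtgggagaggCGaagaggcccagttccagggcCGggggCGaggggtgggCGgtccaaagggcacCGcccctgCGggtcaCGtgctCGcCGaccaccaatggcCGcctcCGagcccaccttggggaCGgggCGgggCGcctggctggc
CDK14 (chr7:90709148-90709397, plus strand): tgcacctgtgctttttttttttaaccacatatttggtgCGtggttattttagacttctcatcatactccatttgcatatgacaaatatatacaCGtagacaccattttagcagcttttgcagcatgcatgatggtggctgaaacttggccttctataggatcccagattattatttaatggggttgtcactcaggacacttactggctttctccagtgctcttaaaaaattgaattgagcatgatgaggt
RFX7 held 32 CG in these bases, a number reached by 12.0% of the 22132 listed promoters of coding genes. The 250 bases before its other listed start, at the 5′ end of the body, held 1 (reached by 96.8%), so the number depends on the start taken. CERT1 held 22 (reached by 35.8%), FBXL2 16 (52.2%) and CDK14, whose listed start lies inside its body, 2 (91.6%). Before the other listed starts of CERT1 and CDK14 there were 16 (52.2%) and 3 (86.2%). Promoter windows from 250 bases before to 50 after a start were listed for 7 of the 9 genes, 11 windows in all, and 0 of them overlapped a peak of any list. That was the usual state, as 0.127% of all listed coding promoters overlapped a control peak, 0.0813% a guide 1 peak and 0.0452% a guide 2 peak.

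RFX7 (gene ID 64864, chromosome 15, 56087280 to 56245082, minus strand) had 7671 bp under 8 control peaks in its window, and 0 bp in both guide lists. The peaks formed a group near the 5′ end and a looser one toward the 3′ end. Near the 5′ end stood 3 peaks, at 56231770 to 56232665 (896 bp, score 29), 56227625 to 56228382 (758 bp, score 17) and 56221644 to 56223488 (1845 bp, score 18), which span 11.0 kb and begin 11.2 kb from the nearest listed start. The peak of score 29 was the highest of all 47. It stood above 69.8% of the scores in the control list and above 92.9% of those outside the gene-free intervals. Farther in were peaks at 56154276 to 56155072 (797 bp, score 14), inside the long non-coding RNA gene LOC124903498, and at 56135720 to 56136724 (1005 bp, score 22). The last peaks of the body were at 56126391 to 56127185 (795 bp, score 16) and 56120376 to 56121604 (1229 bp, score 19). A further peak crossed the outer edge of the window at 56066480 to 56067625 (1146 bp, score 14) and was the only one of the 47 outside a gene body. RFX7 was the most densely marked of the 9, with 4.44 control peaks per 100 kb and 4.64% of its body under peaks.

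CERT1 (gene ID 10087, chromosome 5, 75368486 to 75511981, minus strand) had 5416 bp under 2 control peaks, and 0 bp in both guide lists. The peak at 75483250 to 75487416 was, at 4167 bp, the widest of the 47 and wider than 97.0% of control peaks outside the gene-free intervals, with a score of 16. It made up 76.9% of the coverage of the gene. The other, at 75468348 to 75469596, measured 1249 bp and had a score of 26. Both lay in the 5′ part of the gene, centred 18.6% and 30.0% of its length from the 5′ end.

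FBXL2 (gene ID 25827, chromosome 3, 33277025 to 33422698, plus strand) had 4946 bp under 6 control peaks, and 0 bp in both guide lists. All 6 lay in its first 62.0 kb, and the first, at 33281239 to 33283436 (2198 bp, score 13), was 3.80 kb from the listed start, the shortest such distance of the 37 peaks with a listed start in their gene. The next stood at 33286472 to 33287234 (763 bp, score 20) and 33310160 to 33311081 (922 bp, score 20). Narrow peaks followed at 33324464 to 33324853 (390 bp, score 15), 33333921 to 33334243 (323 bp, score 14) and 33338673 to 33339022 (350 bp, score 19). With 4.12 peaks per 100 kb, FBXL2 came next to RFX7 in density.

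DNAJC1 (gene ID 64215, chromosome 10, 21756548 to 22003730) had 5443 bp under 5 control peaks, and 0 bp in both guide lists. A run of 3 peaks spans 10.1 kb, at 21825658 to 21827750 (2093 bp, score 20), 21830917 to 21831769 (853 bp, score 14) and 21834680 to 21835761 (1082 bp, score 23). A narrow peak of score 26 (342 bp) followed at 21850064 to 21850405, and a single peak stood apart at 21935104 to 21936176 (1073 bp, score 16).

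CNTLN (gene ID 54875, chromosome 9, 17135040 to 17528634, plus strand) had 5645 bp under 4 control peaks, and 0 bp in both guide lists. They were spread at distances of at least 27.5 kb over the first 39% of the gene, with no peak beyond. The first 3 were of similar width, at 17169772 to 17170447 (676 bp, score 24), 17213878 to 17214656 (779 bp, score 18) and 17257541 to 17258389 (849 bp, score 22). The fourth, at 17285859 to 17289199 (3341 bp, score 19), held 59.2% of the coverage.

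AFG2A (gene ID 166378, chromosome 4, 122923078 to 123319433, plus strand) had 7707 bp under 5 control peaks, the longest coverage of the 9, and 0 bp in both guide lists. A group of 3 spans 11.7 kb, at 123041674 to 123044551 (2878 bp, score 15), 123048539 to 123048827 (289 bp, score 12) and 123051759 to 123053393 (1635 bp, score 19). Single peaks stood on either side, at 122987872 to 122988746 (875 bp, score 18) and, 237 kb beyond the group, at 123290737 to 123292766 (2030 bp, score 16). None of the 5 reached 22, the median score over the 3 lists with the gene-free intervals included. Their own median of 16 was close to the 17 of control peaks outside those intervals.

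CDK14 (gene ID 5218, chromosome 7, 90596321 to 91210590, plus strand) had the most peaks, 9, with 6934 bp, against 0 bp in both guide lists. They fell into pairs and single peaks along 544 kb, none wider than 1731 bp and none above score 21. The first pair lay at 90635213 to 90635631 (419 bp, score 15) and 90637671 to 90639401 (1731 bp, score 15). A middle group held 90793350 to 90794271 (922 bp, score 14), 90806599 to 90807177 (579 bp, score 14), 90811074 to 90811345 (272 bp, score 21) and 90838618 to 90839230 (613 bp, score 14). Toward the 3′ end were 90977189 to 90977460 (272 bp, score 13), 90981975 to 90983153 (1179 bp, score 20) and 91177948 to 91178894 (947 bp, score 18).

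PLCB1 (gene ID 23236, chromosome 20, 8132266 to 8884900), the longest of the 9 genes, had 6636 bp under 5 control peaks, and 0 bp in both guide lists. Most of its coverage came from a peak at 8557984 to 8560122 (2139 bp, score 14) and another at 8596599 to 8599232 (2634 bp, score 20). A peak at 8564384 to 8565042 (659 bp, score 13) touched the long non-coding RNA gene LOC124904867. The remaining ones, at 8180048 to 8180276 (229 bp, score 13) and 8689647 to 8690621 (975 bp, score 12), were among the weakest of the 47. Per length PLCB1 was the most sparsely marked, with 0.664 peaks per 100 kb and 0.882% of its body covered.

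MAP2K5 (gene ID 5607, chromosome 15, 67542703 to 67807114, plus strand) had 4539 bp under 3 control peaks, and 0 bp in both guide lists. The peak at 67682900 to 67686462 (3563 bp, score 21) held 78.5% of this. It stood near the middle of the gene beside a narrow one at 67672735 to 67673033 (299 bp, score 17), and the third was near the 3′ end, at 67794993 to 67795669 (677 bp, score 12). RefSeq's gene table gives no exons, so the exonic or intronic place of these peaks was not worked out.

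Across the 9 genes the peaks ranged from 229 to 4167 bp (median 896) and from score 12 to 29 (median 17). The median score equalled that of all control peaks outside the gene-free intervals, while the median width was above their 677 bp; long coverage was part of the choice. Peaks of at least 2000 bp numbered 9 and held 44.9% of the summed peak length, and 10 peaks were under 500 bp. With neighbours within 5 kb joined, 23 of the 47 peaks fell into 10 groups of at least 2 peaks. In the 7 genes with a listed strand, 36 body peaks were distributed as 12, 14, 6 and 4 over 4 equal parts of the body from the 5′ end. The same was not counted for other coding genes, and neighbouring peaks are not independent. No preference for the 5′ part is read from these numbers. Of the 47 peaks, 7 (14.9%) reached a score of 22, beside 23.1% of all control peaks outside the gene-free intervals. Most peaks there thus fall under this limit. The 7 lay in RFX7 (2), CERT1 (1), DNAJC1 (2) and CNTLN (2), so AFG2A, CDK14, PLCB1, FBXL2 and MAP2K5 had no peak of any list at that threshold.

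**Figure D2:**
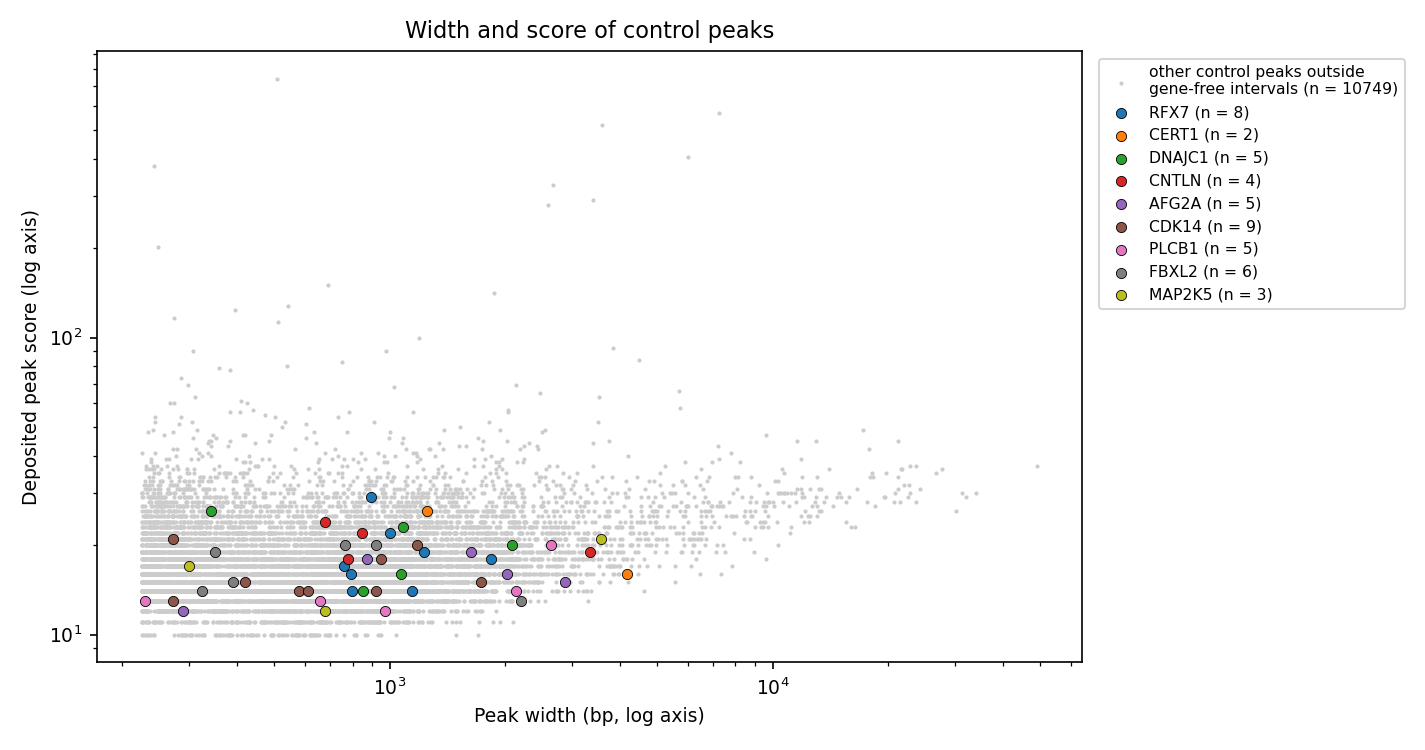
Width (bp, log axis) against deposited score (log axis) of control peaks; coloured points are the 47 peaks of the 9 genes and grey points the other 10749 control peaks outside the gene-free intervals. The coloured points lie between scores 12 and 29 and reach 4167 bp, inside the grey cloud.

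Peaks of such scores were mostly absent from the guide lists in other genes too. Control peaks of score 12 to 29 in the bodies of other coding genes numbered 4172, of which 19.8% (95% Wilson interval 18.6 to 21.1) overlapped a guide 1 peak by at least 1 bp, 9.73% (8.87 to 10.7) a guide 2 peak and 76.5% (75.2 to 77.7) neither. Without zinc finger genes, 82.4% (81.1 to 83.6) of 3393 overlapped neither. Wide peaks differed from this. Of 199 in that score range of at least 2000 bp and outside zinc finger genes, 51.3% (44.4 to 58.1) overlapped guide 1, 31.2% (25.1 to 37.9) overlapped guide 2 and 43.2% (36.5 to 50.2) overlapped neither. The wide peaks of CERT1, MAP2K5, CNTLN, AFG2A, PLCB1, FBXL2 and DNAJC1 are of this width and score. Their lack of guide overlap was fixed by the choice of the genes, so it is not compared with these shares. The intervals cover counting error only, and neighbouring peaks are not independent.

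**Figure D3:**
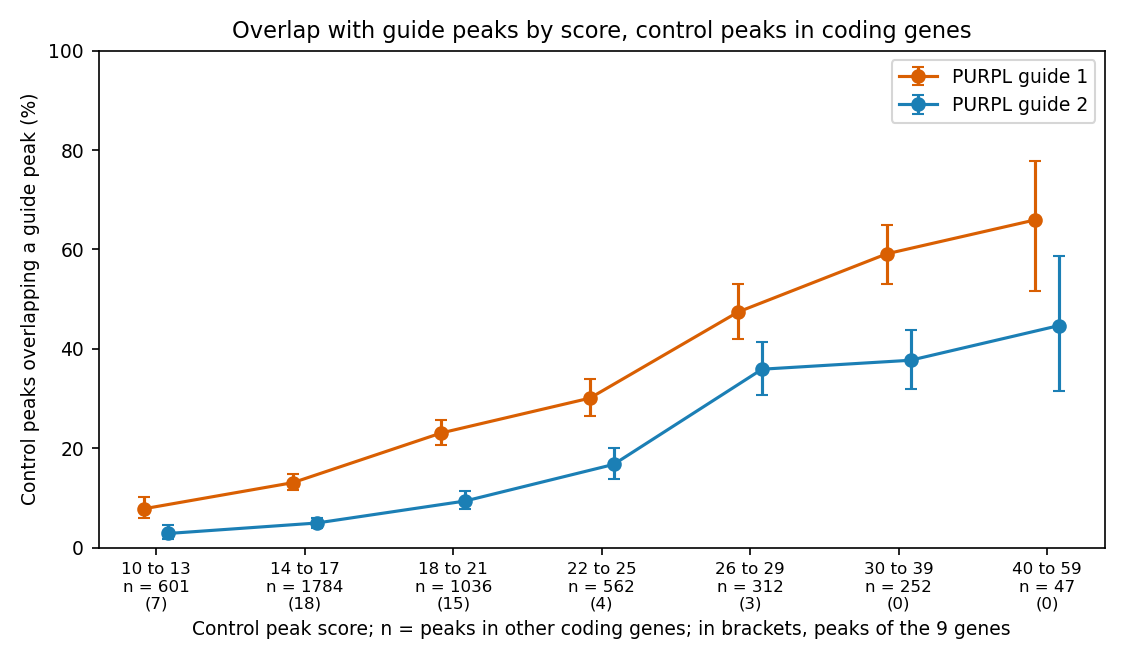
Share (%) of control peaks in the bodies of other coding genes that overlap a guide 1 or guide 2 peak, by control score, with 95% Wilson intervals; the number in brackets under each score range is that of peaks in the 9 gene windows. Shares go from 7.82% and 2.83% at scores 10 to 13 to 47.4% and 35.9% at 26 to 29, and 40 of the 47 peaks lie at scores of 21 or less.

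Guide peaks were also counted over whole genes with long control coverage. In their bodies, 323 coding genes had at least the 4539 bp of MAP2K5, the least covered of the 9, and 199 of these are zinc finger genes by symbol. No peak of either guide was found in 10 of the 323 (3.10%), which are the 9 genes and ZNF454. Among the 124 without zinc finger genes the share was 7.26%, 15 had no guide 1 peak and 48 no guide 2 peak. The 9 were chosen for long control coverage and no guide peak, and the limit is the value of MAP2K5. Both shares are thus set largely by the choice, and nothing is read from them. As a share of control coverage, the median coverage in these 124 was 18.8% for guide 1 and 4.20% for guide 2. The 124 were taken for long control coverage and include the 9, which favours low values. Nothing is therefore read from these medians either. Just outside the choice on the side of the guides lay RANBP17 (5550, 224 and 0 bp in the control, guide 1 and guide 2), GPR39 (4626, 274 and 0 bp) and MKLN1 (7568, 286 and 0 bp).

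On the side of control length, 1370 coding genes (6.86% of all) had control peaks in the body and no guide peak there, and the next in order of control length were NUBPL (4440 bp, 5 peaks), SLC38A6 (4433 bp, 4 peaks), NAALADL2 (4381 bp, 7 peaks) and IL16 (4204 bp, 3 peaks). The distance from MAP2K5 to NUBPL, a gene of mitochondrial complex I assembly, was 99 bp, so the lower limit of the choice does not separate distinct groups. ZNF454 had 6059 bp in 2 peaks in its body, and 2 guide 1 peaks (1226 bp) within 20 kb of it, so it leaves the pattern once flanks are added. NAALADL2 reached a score of 31, above all peaks of the 9 genes, and its nearest guide peaks were 1579 kb (guide 1) and 869 kb (guide 2) away.

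The nearest guide peak to each body differed widely between genes and between guides. Guide 1 came nearest at PLCB1, with a peak 26.0 kb below the gene (8106021 to 8106249, score 16), and at CERT1, 40.4 kb away (75552378 to 75552899, 522 bp, score 13). The peak beside CERT1 lies in POLK, a DNA polymerase gene that overlaps the 5′ end of CERT1 and had 1824, 522 and 0 bp in the control, guide 1 and guide 2 lists. For CNTLN and RFX7 the distances to guide 1 were 137 kb (16996418 to 16997585, 1168 bp, score 22) and 155 kb (55932304 to 55932687, 384 bp, score 12, in NEDD4). CDK14, MAP2K5, DNAJC1, FBXL2 and AFG2A had guide 1 peaks at 236, 288, 301, 311 and 370 kb, with scores of 16, 33, 27, 25 and 15.

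Guide 2 peaks were farther from 7 of the 9 genes and nearer to FBXL2 and AFG2A. The nearest stood 105 kb from FBXL2 (33527521 to 33527740, 220 bp, score 21, in CLASP2) and 266 kb from AFG2A (122656135 to 122656726, 592 bp, score 14). DNAJC1 followed at 400.3 kb (22404047 to 22404619, score 18, in SPAG6). RFX7, CDK14 and CNTLN had none within 906, 973 and 1006 kb. At PLCB1, CERT1 and MAP2K5 the nearest guide 2 peaks were 2457, 2710 and 3213 kb away. Taken peak by peak, the median distance from the 47 control peaks to the nearest peak was 371 kb for guide 1 and 1030 kb for guide 2. Of the 9 nearest peaks, 5 of guide 1 and 3 of guide 2 lay on a control peak. The guide 2 list also has fewer peaks than the guide 1 list, and the part of this in the distances was not tested.

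**Figure D4:**
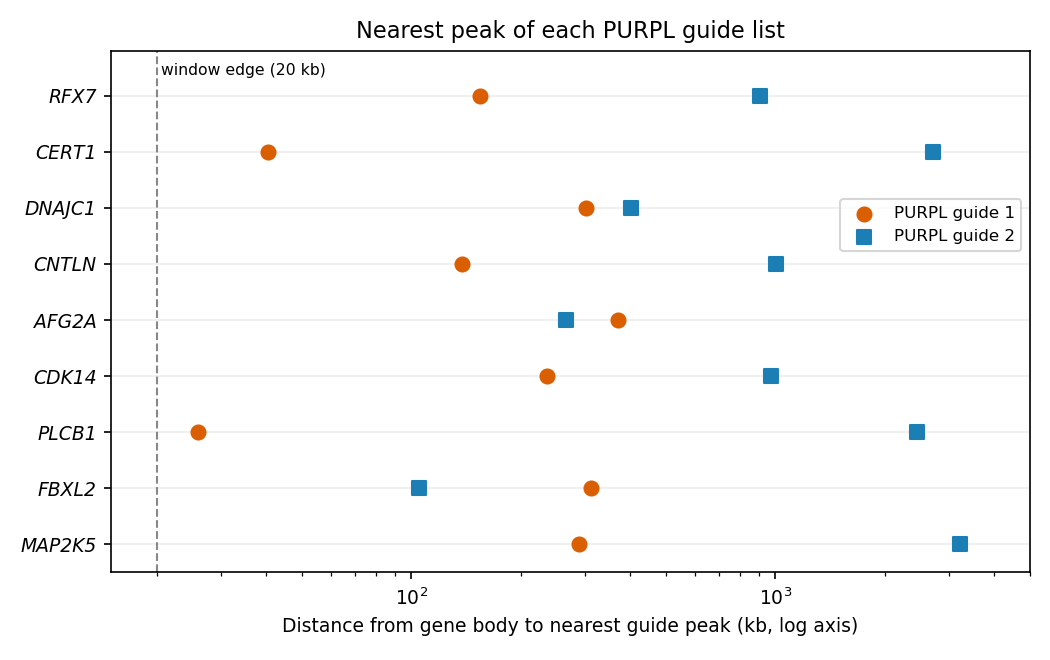
Distance (kb, log axis) from each gene body to the nearest guide 1 peak (circles) and guide 2 peak (squares); the dashed line is the window edge at 20 kb. Guide 1 distances run from 26.0 to 370 kb, and 6 of the 9 guide 2 distances exceed 500 kb.

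The sequence around the genes was not used in the choice, but it adjoins windows chosen for having no guide peak. From 20 to 500 kb outside the bodies, 8.64 Mb in all, the control list had 43 peaks, guide 1 had 15 and guide 2 had 3. This equals 4.98, 1.74 and 0.347 peaks per Mb, against 3.78, 1.43 and 0.743 over all 2852 Mb outside the gene-free intervals. The guides thus had 34.9% and 6.98% of the control number around the genes, and 37.8% and 19.6% over the genome. The 6.98% rests on 3 guide 2 peaks, and the difference from the genome was not tested. Inside the windows the control density was 13.5 per Mb and that of both guides 0, as the choice favoured the first and fixed the second. The 3 guide 2 peaks were 1 each around DNAJC1, AFG2A and FBXL2. RFX7 had 8, 4 and 0 peaks around it, CERT1 9, 2 and 0, and MAP2K5 7, 1 and 0. Peaks around the genes were placed by their midpoint, and peaks in the windows by any overlap. The control peak that crosses the edge of the RFX7 window is therefore counted in both, also among the 43.

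**Figure D5:**
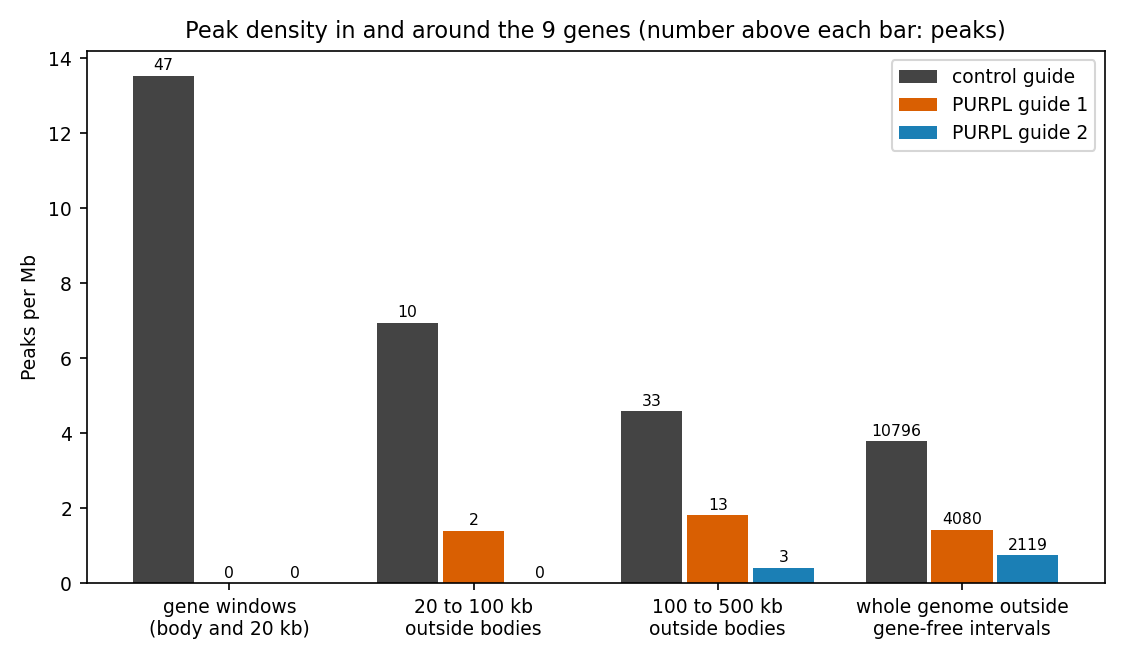
Peaks per Mb of the control, guide 1 and guide 2 lists in the 9 gene windows, 20 to 100 kb and 100 to 500 kb outside the bodies, and over all sequence outside the gene-free intervals, with the number of peaks above each bar. Control density is 13.5 in the windows and 4.58 at 100 to 500 kb, and guide 1 goes from 0 to 1.81. The control peak that crosses the edge of the RFX7 window is counted in the windows and at 20 to 100 kb.

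The windows also held all or part of 10 other coding genes. In their bodies, 3 of the 10 had a control peak, 1 a guide 1 peak and 0 a guide 2 peak, beside 13.1%, 6.55% and 3.73% of all coding genes. TEX9, whose body overlaps the end of RFX7, had 586, 0 and 0 bp, and MLLT10, a chromatin gene beside DNAJC1, 1258, 0 and 0 bp. POLK was the third. NUDT6, UBP1 and SKOR1 had 0 bp in all 3 lists.

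Relatives and partners of the 9 genes were counted in 10 lists with 129 genes. Lengths given for them, here and below, are over the body with 20 kb on each side, so they can lie outside the gene itself. In the body or within 20 kb, 39 had a control peak (30.2%, against 21.9% of all coding genes), 14 a guide 1 peak (10.9%, against 10.5%) and 4 a guide 2 peak (3.10%, against 6.00%). Over the 129 genes pooled, as over all coding genes, the median coverage was 0 bp in the control and with both guides. Among the 10 lists, the medians above 0 were 264 bp in the control for ceramide synthesis and transfer and 372 bp with guide 1 for the relatives of CDK14. Control peaks alone were found for 25 of the 129, beside 12.2% of all coding genes. None of these shares was matched for gene length, and long genes were marked more often, so no difference is read from them.

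None of the other 9 members of the RFX family and its partners had a control peak, and RFX2 had 1331 bp with guide 1 alone, outside its body. None of 8 genes known as RFX7 targets, such as PDCD4, PIK3IP1 and TOB1, had a peak in any list. Ceramide synthesis and transfer genes, the setting of CERT1, had 11 of 20 members with a control peak, 5 with guide 1 and 0 with guide 2. SPTLC1, a subunit of the first enzyme of sphingolipid synthesis, had 1691, 1853 and 0 bp, the ceramide synthase CERS3 1323, 564 and 0 bp, and VAPA, the membrane anchor that CERT1 binds, 848, 0 and 0 bp. The guide 1 peak at CERS3 and the control peak at VAPA lay outside the gene bodies. Each of the 11 had 1 control peak.

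Genes of J-domain proteins and chaperones of the endoplasmic reticulum had 6 of 27 members with a control peak, 1 with guide 1 and 1 with guide 2. DNAJC10, a disulfide reductase, had 3099, 0 and 0 bp, DNAJC3 2769, 0 and 224 bp, and the translocon partner SEC63 1899, 329 and 0 bp. In its body alone, DNAJC3 had 262, 0 and 0 bp. Among 6 centriole cohesion genes, CCDC102B had 3296, 727 and 0 bp and the rootlet gene CROCC 375, 0 and 0 bp, outside its body, and the other 4 had none. Of 6 ATPases and partners related to AFG2A, NVL alone had coverage, 1113, 0 and 0 bp, outside its body. CDK14's relatives and cyclin Y had 2 of 6 members with a control peak, 3 with guide 1 and 0 with guide 2. CDK17 had 3140, 1036 and 0 bp, CCNY, the cyclin partner of CDK14, 1382, 1592 and 0 bp, and CDK15 0, 744 and 0 bp.

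Phospholipase C genes had 6 of 13 members with a control peak, 1 with guide 1 and 1 with guide 2, among them PLCE1 (2852, 0 and 0 bp), PLCG2 (2500, 0 and 0 bp) and PLCB4 (802, 334 and 0 bp). F-box leucine-rich genes and the subunits of their ligase had 6 of 20, 1 and 1, with FBXL7 at 2377, 778 and 0 bp, FBXL13 at 1743, 0 and 0 bp and FBXL17 at 1127, 0 and 806 bp. Of 14 genes of the MAP2K5 pathway, 5 had a control peak, 1 a guide 1 peak and 1 a guide 2 peak. MAP2K4 had 1717, 246 and 0 bp, MAP2K3 1446, 0 and 304 bp, and the transcription factor MEF2A 1152, 0 and 0 bp, while MAPK7, the substrate of MAP2K5, had none.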

How the data were processed

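H3K9me3 ChIP-seq of 3 BJ cell lines was used, each with 1 H3K9me3 and 1 input library fixed with 1% formaldehyde for 10 min, per the labels' protocols. The deposited lists give each peak's position and score, called per line against its own input. MACS2 2.2.9.1, deepTools 3.5.1, Bowtie2 2.4.2 and GATK are named in the submitters' processing notes, beside the builds hg38 and GRCh38.p13. Peak-calling settings, filters and depth: not given in the sources used here. A threshold can split or miss weak or broad signal, and depth, which is unknown, moves the number of peaks.

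Peaks on chromosomes 1 to 22 and X were set against RefSeq gene bodies (GRCh38.p14) with 20 kb on each side, and a peak counted when it overlapped by at least 1 bp. Covered length is the number of bases under peaks. Calculations ran in Python 3.11.15 with pandas 2.3.3, numpy 2.4.6, matplotlib 3.10.9 and scipy 1.17.1. The overlap code was tested on 1000 simulated windows, with 0 errors. With 1 library per line no test was made. The members and lists were chosen with earlier results of these data known. Named were the 9 genes, the 5 next by control length in the body among genes without guide peaks there, coding genes in the windows, and up to 3 genes per list by control coverage; RANBP17, GPR39 and MKLN1, as the 3 with the shortest guide coverage, were added after their values were seen, as were the classes of width and score. Alternatives were gene windows, score limits, the overlap required and joined peaks.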

Additional observations from a re-analysis of the deposited data

How the results depend on the processing

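With 1 library per line there was no replicate to leave out, and depth limits every absence: a region without a guide peak may hold signal under the caller's threshold. No paired analysis was possible because each cell line has 1 H3K9me3 library and no test was made. A value counted as changed when it moved by over 1.5 times or, for a share, left its 95% Wilson interval. With peaks at or above a score of 22, 4 of the 9 genes kept a control peak without a guide peak, over 7 peaks and 6099 bp, and the share of control-marked coding genes without a guide peak was 65.2%. With a score of at least 20 there were 14 peaks and 17525 bp, and that share was 64.3%. Gene bodies alone gave a share of 52.5%. Joining peaks within 5 kb gave 102414 bp, a length that also counts the gaps between joined peaks. With 50 kb on each side guide 1 had 2 peaks, beside CERT1 and PLCB1, and guide 2 had 0. Against guide peaks of at least 22 the median distances were 2040 kb for guide 1 and 7042 kb for guide 2. Apart from the gaps that joining adds and the smaller number of peaks that a score limit leaves, the cause of these changes was not tested.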
